A study of Mus musculus with 8 samples.

Results

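The co-activators of KLF2 and the regulators of its gene were examined as a group of 9 genes. The group holds the acetyltransferases Ep300 and Crebbp (p300 and CBP), the acetyltransferases Kat2a and Kat2b (GCN5 and PCAF), the class IIa histone deacetylases Hdac5 and Hdac7, and the MEF2 transcription factors Mef2a, Mef2c and Mef2d. They were chosen by name, matched by Ensembl identifier, and all 9 were found among the 23761 genes of the deposited expression table.

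Total RNA was sequenced from bone marrow-derived macrophages (BMDMs) of 3-month-old mice, 4 of the LysM and 4 of the K2KO genotype. LysM mice were LysM Cre/Cre, with Cre recombinase at both copies of the lysozyme M gene (Lyz2), which is active in myeloid cells. K2KO mice were LysM Cre/Cre KLF2 flox/flox, so both groups carry Cre on both Lyz2 alleles and the floxed Klf2 sets them apart. Both were on a C57BL/6J background, the marrow cells were grown in medium conditioned by L929 fibroblasts, and the column names mark all libraries as vehicle. The libraries are called LysM0 to LysM3 and K2KO0 to K2KO3 after the numbers in the column names, which give the genotype but not the mouse.

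KLF2 is a zinc finger transcription factor that restrains inflammatory gene expression in myeloid cells and endothelium. It is known to limit NF-kB by competing for the acetyltransferases p300, CBP and PCAF, which open chromatin by acetylating histones and also acetylate NF-kB itself. The Klf2 gene is in turn driven by MEF2 factors, which bind an A and T rich site in its promoter after activation by the MEK5 and ERK5 kinases. Class IIa deacetylases bind MEF2 and silence its targets until they are phosphorylated and exported from the nucleus. These proteins are controlled largely by modification and location, which RNA levels do not show.

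The RefSeq promoters of the 9 genes and of Klf2 were searched for a MEF2 motif of 10 bases. They were 16 windows of 250 bases before to 50 bases after a start site on GRCm38.p6. Looser forms of the MEF2 site were not searched. The motif was CTA and TAG around a run of bases that are each A or T. The motif has the same pattern as its reverse complement, so the search covered both strands. It was found in 3 of the 16 windows and in 183 of all 32851 RefSeq promoters searched, or 0.557%. The windows are shown because they place the MEF2 motif at Klf2, at a MEF2 gene and at a class IIa deacetylase gene, with the motif in capitals, 10 flanking bases on each side and each read 5′ to 3′ on its gene's strand:
Klf2, chr8:72318934-72318963, plus strand: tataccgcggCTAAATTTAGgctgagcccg
Mef2a, chr7:67372841-67372870, minus strand: ggcctgactcCTAAAAATAGccccggtgtg
Hdac5, chr11:102230173-102230202, minus strand: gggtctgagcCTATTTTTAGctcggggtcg
With the start site counted as 0, the motif ran from -118 to -109 at Klf2, from -2 to 7 at Mef2a and from -20 to -11 at Hdac5. A match is a description of the sequence, and no binding was measured in these libraries.

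Expression was given in FPKM, which divide a gene's fragments by its transcript length and by the fragments mapped in the library, so values are per length and can be set beside each other between genes. Summed over all genes, LysM libraries held 497253 to 551608 FPKM and K2KO libraries 448235 to 501965 FPKM. FPKM are not counts, so the sequencing depth is unknown. Fold changes are K2KO against LysM on the log2(FPKM + 0.1) scale, from limma fitted to the 10920 genes whose FPKM averaged 1 or more. A gene was called differentially expressed at an adjusted p under 0.05 (Benjamini-Hochberg) and an absolute log2 fold change over 0.26.

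Klf2, the targeted gene (chr8:72319033-72321656, plus strand), was read first as a check of the labels. Its expression in LysM0 to LysM3 was 44.1, 52.9, 64.7 and 72.8 FPKM. In K2KO0 to K2KO3 it was 45.5, 41.6, 59.2 and 59.3 FPKM. The groups overlapped over most of their range, with means of 58.7 ± 12.7 (SD, n = 4) and 51.4 ± 9.22 FPKM. The log2 fold change was -0.18 (SE 0.17, limma adjusted p = 0.46), with a 95% interval from -0.57 to 0.21, and an exact two-sided permutation test gave p = 0.429, where the smallest p of the 35 splits is 0.0286. The sources used here do not say which segment of Klf2 is floxed, so this gene-level value cannot tell intact from recombined transcripts, and the second group is taken as the libraries labelled K2KO. Lyz2, the gene that carries Cre in both groups, was at 18.6 ± 2.88 FPKM in LysM and 13.2 ± 1.73 FPKM in K2KO libraries (log2 fold change -0.49, limma adjusted p = 0.026).

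The 9 genes were all expressed and all passed the filter, at mean levels that spanned 9.49-fold. Mef2d was the most abundant in every library and Crebbp the least. The mean FPKM over the 8 libraries was 36.3 for Mef2d, 20.6 for Mef2a, 18.6 for Hdac5 and 16.2 for Kat2a. Ep300 at 7.56, Kat2b at 6.62, Mef2c at 6.38, Hdac7 at 4.69 and Crebbp at 3.83 FPKM formed a lower tier. Mef2d (33.2 to 39.2 FPKM) stood clear of its neighbour in this order, and so did Crebbp (3.70 to 3.98 FPKM). Mef2a, Hdac5 and Kat2a had overlapping ranges, as did Ep300, Kat2b and Mef2c, and Hdac7 overlapped Mef2c. Mef2d was higher than 79.9% of the 10920 tested genes and Crebbp higher than 24.8%.

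**Figure D1:**
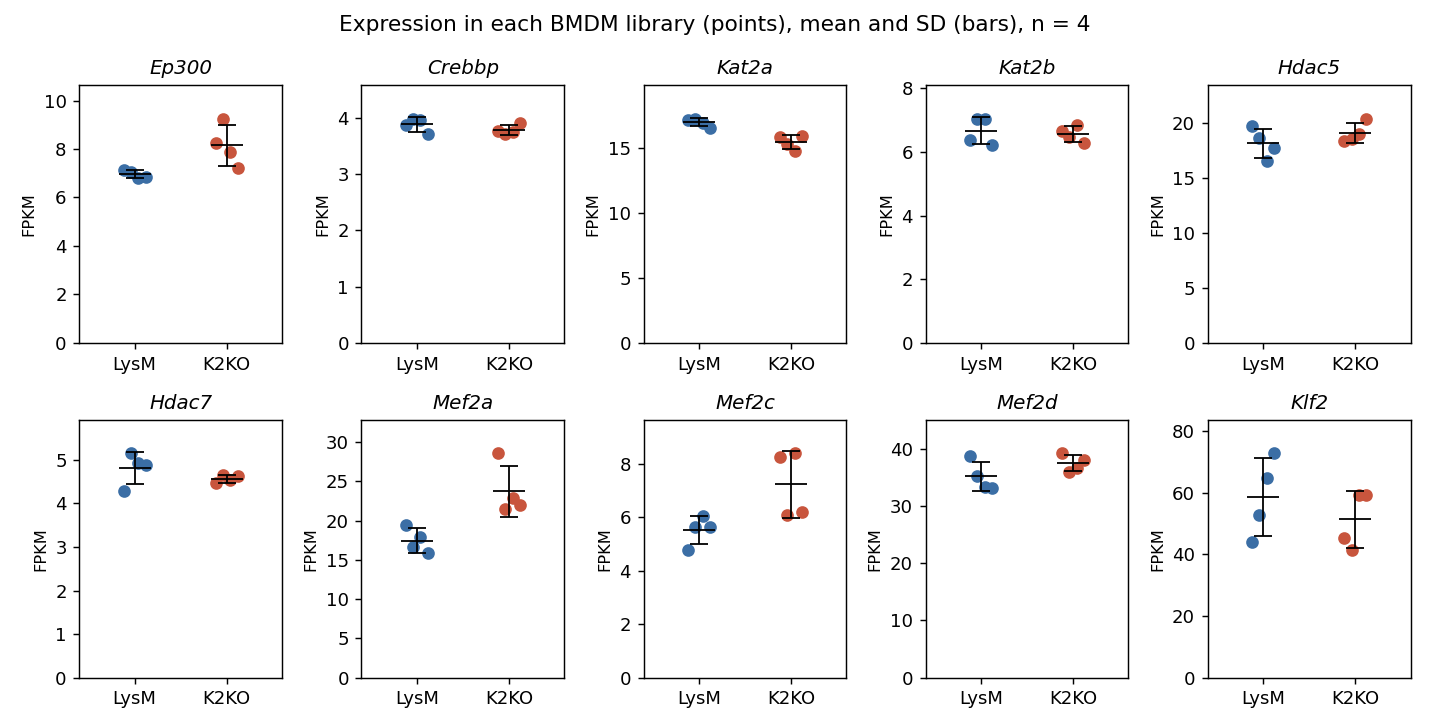
FPKM of the 9 genes and of Klf2 in each library, with a point for each of the 4 LysM (blue) and 4 K2KO (red) libraries and bars for the mean and SD, on linear axes from 0. The points of the genotypes are separate for Ep300, Kat2a, Mef2a and Mef2c and overlap for the other genes; Mef2a reached 28.6 FPKM in K2KO0.

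Of the 9 genes, Mef2a alone was called differentially expressed, and it was higher in K2KO BMDMs. Over all tested genes, 18.4% were called, 9.84% higher and 8.61% lower in K2KO, so 1 of 9 (11.1%) is no more than the share of genes in general. The groups did not overlap for Ep300, Mef2a and Mef2c, which were higher in every K2KO library than in every LysM library, and for Kat2a, which was lower. Among all tested genes, 12.9% were separated in the higher direction and 10.2% in the lower. An unadjusted p under 0.05 was reached by 4 of the 9 genes and by 37.8% of the tested genes. The median log2 fold change was 0.07 over the 9 genes and 0.01 over all tested genes.

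**Figure D2:**
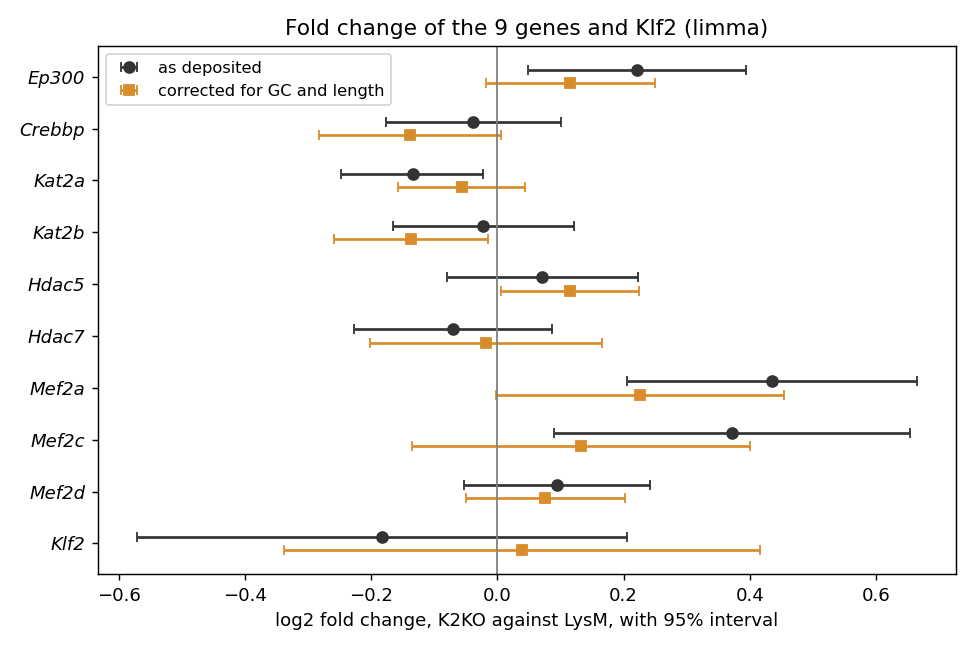
Log2 fold change (K2KO against LysM, x axis) of each gene with its 95% interval from limma, as deposited (black circles) and after correction for transcript GC content and length (orange squares). As deposited, the intervals of Ep300, Kat2a, Mef2a and Mef2c exclude 0; after correction, those of Kat2b and Hdac5 do, with no gene called.

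The MEF2 factors are MADS-box proteins that recruit deacetylases or acetyltransferases to the same sites. Mef2a (chr7:67231163-67372858, minus strand) was at 19.4, 16.6, 17.95 and 15.9 FPKM in LysM0 to LysM3. In K2KO0 to K2KO3 it was at 28.6, 21.5, 22.9 and 21.9 FPKM, with K2KO0 above the rest and the lowest K2KO library still above the highest LysM library. The means were 17.5 ± 1.55 and 23.7 ± 3.29 FPKM (SD, n = 4). On the log2 scale the difference was 0.43 (SE 0.10, 95% interval from 0.21 to 0.66, limma adjusted p = 0.0225), or 1.35-fold. The call was lost without LysM1 (adjusted p = 0.0632), without LysM3 (0.0693) and without K2KO2 (0.0568), and the log2 fold change stayed between 0.34 and 0.49 over the 8 fits that each left out 1 library.

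Mef2c (chr13:83504034-83667080, plus strand), a MEF2 factor of muscle, neurons, endothelium and myeloid cells, was at 4.78, 5.63, 6.07 and 5.63 FPKM in LysM0 to LysM3. In K2KO0 to K2KO3 it was at 8.25, 6.11, 8.40 and 6.19 FPKM. The K2KO libraries fell into a pair near 8 FPKM and a pair just above the highest LysM library. The log2 fold change was 0.37 (SE 0.13, 95% interval from 0.09 to 0.65, limma adjusted p = 0.0629), so Mef2c was not called; without K2KO3 the adjusted p was 0.0339, and with upper-quartile scaling 0.0444.

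Mef2d (chr3:88142372-88177706, plus strand), the main MEF2 transcript of these cells, was at 38.8, 35.2, 33.3 and 33.2 FPKM in LysM0 to LysM3. It was at 39.2, 35.9, 36.7 and 38.1 FPKM in K2KO0 to K2KO3, and the groups overlapped. The log2 fold change was 0.09 (SE 0.07, 95% interval from -0.05 to 0.24, limma adjusted p = 0.315).

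Set against each other within a library, which removes the scaling of that library, the MEF2 transcripts differed in proportion between the genotypes. Mef2a made up 30.8%, 28.9%, 31.3% and 29.0% of the summed FPKM of Mef2a, Mef2c and Mef2d in LysM0 to LysM3. It made up 37.6%, 33.8%, 33.7% and 33.1% in K2KO0 to K2KO3, above every LysM library. The share of Mef2d was 60.4% ± 1.59 (SD, n = 4) in LysM and 54.9% ± 2.69 in K2KO libraries, with no overlap, and that of Mef2c was 9.57% ± 1.35 and 10.5% ± 1.37, with overlap. The summed FPKM of these genes was 58.1 ± 3.46 in LysM and 68.4 ± 5.39 in K2KO libraries, also with no overlap. These shares are descriptions and were given no test, and correction for GC content and length reduced the difference in the Mef2a share from 4.55 to 2.17 percentage points.

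**Figure D3:**
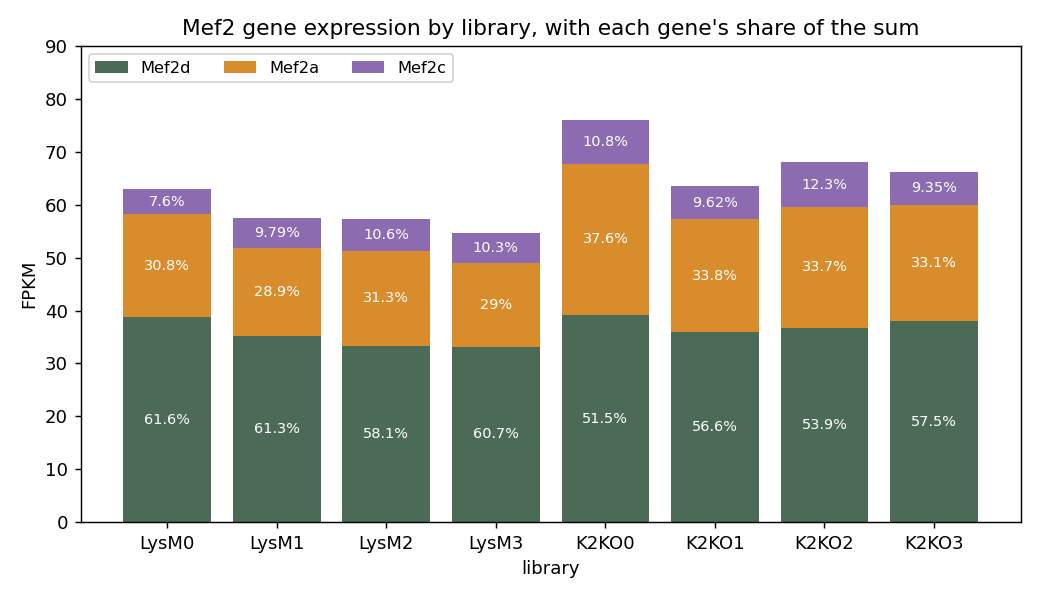
Stacked FPKM (y axis) of Mef2d, Mef2a and Mef2c in each of the 8 libraries (x axis), with the share of the sum printed in each segment. The Mef2a segment takes 28.9% to 31.3% of the sum in the LysM libraries and 33.1% to 37.6% in the K2KO libraries.

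The acetyltransferases p300 and CBP are paralogous co-activators of KLF2, NF-kB and MEF2. Ep300 (chr15:81585397-81652077, plus strand) was at 7.15, 7.04, 6.79 and 6.85 FPKM in LysM0 to LysM3, a narrow range. In K2KO0 to K2KO3 it was at 8.27, 9.26, 7.89 and 7.21 FPKM, more widely spread, with K2KO3 just above the highest LysM library. The means were 6.96 ± 0.165 and 8.16 ± 0.854 FPKM (SD, n = 4). The log2 fold change was 0.22 (SE 0.08, 95% interval from 0.05 to 0.39, limma adjusted p = 0.069), so Ep300 was not called; without K2KO3 it was, at an adjusted p of 0.0185.

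Crebbp (chr16:4081328-4213997, minus strand) was at 3.86, 3.98, 3.96 and 3.70 FPKM in LysM0 to LysM3. It was at 3.75, 3.70, 3.75 and 3.90 FPKM in K2KO0 to K2KO3. The libraries of both groups lay in the same narrow range, with a log2 fold change of -0.04 (SE 0.06, 95% interval from -0.18 to 0.10, limma adjusted p = 0.676). Ep300 and Crebbp transcripts are close in GC content (51.1% and 51.7%) and in length (9566 and 10820 bases). Their ratio was 1.80 ± 0.0671 (SD, n = 4) in LysM libraries and 2.17 ± 0.269 in K2KO libraries. It was 2.20, 2.50 and 2.11 in K2KO0 to K2KO2 but 1.85 in K2KO3, within the LysM range of 1.71 to 1.85.

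GCN5 and PCAF are the paralogous acetyltransferases of the SAGA and ATAC co-activator complexes, and PCAF is a partner of KLF2. Kat2a (chr11:100704746-100712465, minus strand) was at 17.2, 17.3, 16.9 and 16.6 FPKM in LysM0 to LysM3. It was at 15.9, 15.3, 14.8 and 15.9 FPKM in K2KO0 to K2KO3, below every LysM library. The difference was small, with a log2 fold change of -0.13 (SE 0.05, 95% interval from -0.25 to -0.02, limma adjusted p = 0.0828), and Kat2a was not called. Kat2b (chr17:53566971-53672720, plus strand) was at 6.37, 7.03, 7.05 and 6.24 FPKM in LysM0 to LysM3. It was at 6.67, 6.46, 6.84 and 6.27 FPKM in K2KO0 to K2KO3, inside the LysM range. Its log2 fold change was -0.02 (SE 0.06, 95% interval from -0.17 to 0.12, limma adjusted p = 0.823). The ratio of Kat2a to Kat2b was 2.55 ± 0.145 (SD, n = 4) in LysM and 2.36 ± 0.155 in K2KO libraries, with overlap.

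The class IIa deacetylases HDAC5 and HDAC7 bind MEF2 and shuttle between nucleus and cytoplasm. Hdac5 (chr11:102194432-102230166, minus strand) was at 19.7, 18.6, 16.6 and 17.7 FPKM in LysM0 to LysM3. It was at 18.3, 18.6, 18.9 and 20.4 FPKM in K2KO0 to K2KO3, and the groups overlapped. Its log2 fold change was 0.07 (SE 0.07, 95% interval from -0.08 to 0.22, limma adjusted p = 0.46). Hdac7 (chr15:97784355-97844502, minus strand) was at 4.29, 5.15, 4.92 and 4.89 FPKM in LysM0 to LysM3. It was at 4.46, 4.66, 4.53 and 4.63 FPKM in K2KO0 to K2KO3, a narrower spread inside the LysM range. Its log2 fold change was -0.07 (SE 0.07, 95% interval from -0.23 to 0.09, limma adjusted p = 0.483). The ratio of Hdac5 to Hdac7 was 3.80 ± 0.537 (SD, n = 4) in LysM and 4.17 ± 0.174 in K2KO libraries, with overlap.

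Some of these values share their place in the genome with other genes, and whether the authors' counting used strand is not given in the sources used here. Hdac7 overlaps Slc48a1, a heme transporter on the opposite strand that was far more abundant (96.1 ± 7.07 FPKM in LysM and 115 ± 13.6 FPKM in K2KO libraries, SD, n = 4). Mef2a overlaps Lysmd4 on the opposite strand, which was low (1.73 and 2.24 FPKM) and was itself called higher (log2 fold change 0.36, limma adjusted p = 0.0382). Mef2d overlaps the antisense gene 1700113A16Rik, which was called lower (1.54 and 1.01 FPKM, log2 fold change -0.55, limma adjusted p = 0.0421). Kat2b has a near-identical copy, Kat2b-ps, at 0.172 FPKM in LysM and 0.298 FPKM in K2KO libraries. The values of Hdac7, Mef2a, Mef2d and Kat2b are uncertain to the extent that reads were shared.

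Genes in this table moved with the GC content of their transcripts, and the 9 genes are spread over that range, some of them at each end. The tested genes were divided into eighths by the GC content of the longest transcript. In the lowest eighth, 24.9% were called higher and 1.76% lower in K2KO, and in the highest eighth 1.91% were called higher and 21.9% lower. Mef2a (42.0% GC) and Mef2c (40.8%) lie in the lowest eighth, whose median log2 fold change was 0.19. Kat2a (57.4%), Hdac5 (59.8%), Hdac7 (60.2%) and Klf2 (61.6%) lie in the highest, with a median of -0.16. Ep300 and Crebbp lie in the fifth eighth, with a median of -0.02, and Mef2d (55.0%) and Kat2b (46.6%) in the seventh and the third.

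With each library corrected for GC content and transcript length, the log2 fold change of Mef2a was 0.23 (SE 0.10, 95% interval from -0.002 to 0.45, limma adjusted p = 0.159). None of the 9 genes was called, beside 10% of the 10899 genes in that fit. An unadjusted p under 0.05 was reached by 2, Kat2b and Hdac5. The share of all tested genes at that level was 37.8% in the fit as deposited and is not given for the corrected fit. The count of 2 is therefore not read as a result about these genes. The log2 fold change of Mef2c was 0.13 (adjusted p = 0.467), that of Ep300 0.12 (0.212) and that of Kat2a -0.06 (0.408). Kat2b moved to -0.14 (95% interval from -0.26 to -0.01, adjusted p = 0.119) and Hdac5 to 0.12 (95% interval from 0.005 to 0.23, adjusted p = 0.142). Klf2 moved to 0.04 (adjusted p = 0.895). The part of library preparation and of the cells in this relation to GC content was not tested.

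**Figure D4:**
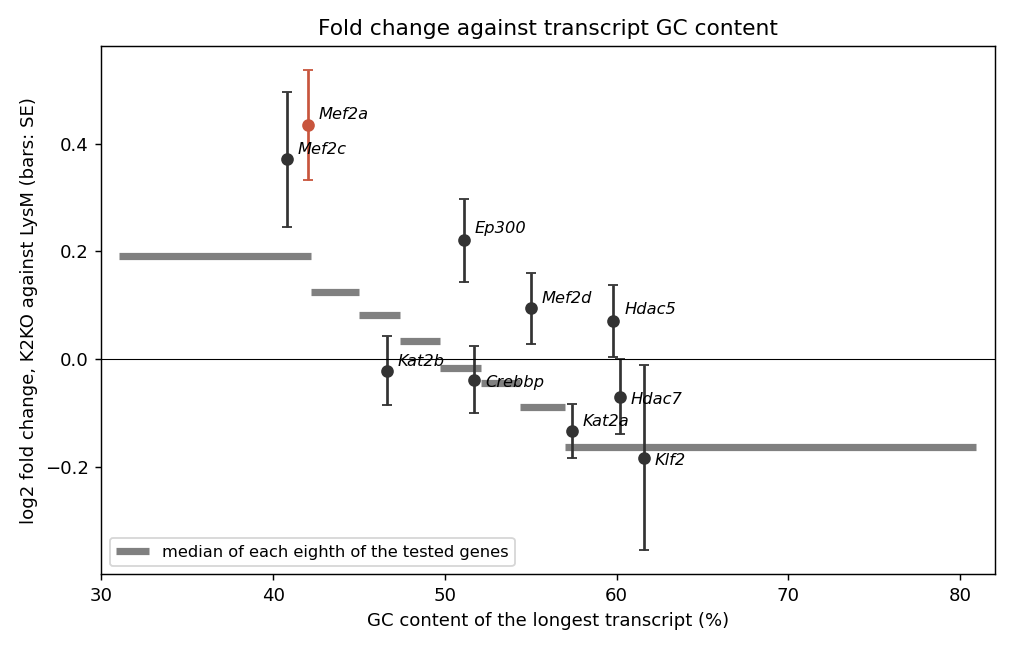
Log2 fold change with SE (y axis) of the 9 genes and Klf2 against the GC content of the longest transcript (x axis, percent), over the median of each eighth of the tested genes (grey bars, each as wide as its GC range). The medians fall from 0.19 to -0.16. Mef2a (red, the called gene), Mef2c, Ep300, Mef2d, Hdac5, Hdac7 and Kat2a lie above the median of their eighth. Crebbp, Kat2b and Klf2 lie below the median of theirs.

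The remaining members of both families were scarce. Mef2b was at 0.472 ± 0.248 FPKM (SD, n = 4) in LysM and 0.633 ± 0.264 in K2KO libraries, and Hdac9 at 0.634 ± 0.159 and 0.436 ± 0.0927, both under the filter and not tested. Hdac4 was at 1.73 ± 0.111 and 1.76 ± 0.138 FPKM, with a log2 fold change of 0.02 (SE 0.11, limma adjusted p = 0.888) that turned to -0.07 with quantile normalization and -0.05 with the GC and length correction. Hdac5 and Hdac7 were the most abundant class IIa deacetylase transcripts, and Mef2a, Mef2c and Mef2d carried nearly all of the MEF2 signal.

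Around the deacetylases, 1 of 6 tested genes of the other classes was called. It was Hdac1, a class I enzyme of the NuRD and Sin3 complexes, at 12.96, 14.95, 17.7 and 15.5 FPKM in LysM0 to LysM3 and 10.1, 10.04, 10.9 and 13.8 FPKM in K2KO0 to K2KO3. Its log2 fold change was -0.45 (SE 0.12, limma adjusted p = 0.0329), and K2KO3 lay within the LysM range. The call was lost in 6 of the 8 fits with 1 library left out, all but those without LysM0 and without K2KO3. Hdac3, the class I enzyme of the NCoR complex, was at 30.9 ± 1.37 FPKM (SD, n = 4) in LysM and 26.7 ± 1.16 in K2KO libraries with no overlap, and missed only the fold limit (log2 fold change -0.21, limma adjusted p = 0.0331). With the GC and length correction 3 of the 6 were called, Hdac1, Hdac2 and Hdac3, all lower, beside 10% of all genes in that fit. Of 8 tested class IIa corepressors, 1 was called, and the median log2 fold change was 0.09. This was Ncor1, the scaffold that holds HDAC3 and class IIa deacetylases, at 8.36 ± 0.359 FPKM (SD, n = 4) in LysM and 10.7 ± 1.25 in K2KO libraries (log2 fold change 0.34, limma adjusted p = 0.026, no overlap), and 0.20 after the correction (adjusted p = 0.0665). With 1 library left out, Ncor1 was called in the fits without LysM0 and without K2KO3 and not in the other 6.

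Among kinases, phosphatases and export factors that act on class IIa deacetylases, 2 of 23 tested genes were called higher and 1 lower. With 1 library left out the count ran from 1 (Camk1, without LysM1, LysM3, K2KO0, K2KO1 or K2KO2) to 6 (without K2KO3). With upper-quartile scaling 3 were higher and 0 lower, and with the GC and length correction 0 were higher and 2 lower (Camk1 and Ywhaz). Over all tested genes, the share called with 1 library left out ran from 4.98% (without LysM3) to 26.2% (without K2KO3). It was 19.1% with upper-quartile scaling and 10% with the correction. Camk1, a calcium and calmodulin dependent kinase, was at 78.7, 80.03, 78.6 and 75.1 FPKM in LysM0 to LysM3. It was at 60.1, 65.7, 64.4 and 63.0 FPKM in K2KO0 to K2KO3, below every LysM library (log2 fold change -0.30, SE 0.05, limma adjusted p = 0.0121). The call was lost with quantile normalization (-0.18, adjusted p = 0.0715) and, by the fold limit, with upper-quartile scaling (-0.259). Ppp1cb and Ppp1r12a, catalytic and targeting subunits of the myosin phosphatase that dephosphorylates HDAC7, were called higher. Ppp1cb rose from 11.8 ± 1.21 to 15.04 ± 1.05 FPKM (SD, n = 4; log2 fold change 0.35, limma adjusted p = 0.0238), with a log2 fold change of 0.12 after the GC and length correction (adjusted p = 0.155). Ppp1r12a was at 4.79 ± 0.474 and 7.07 ± 1.70 FPKM (log2 fold change 0.53, limma adjusted p = 0.0497), with K2KO3 at 4.87 FPKM inside the LysM range. Its call stood at the threshold and held in 1 of 12 other settings and in 2 of the 8 fits with 1 library left out: the adjusted p was 0.0543 and 0.0505 with a pseudocount of 1 and of 0.01, and the log2 fold change was 0.30 with the correction (adjusted p = 0.19).

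In the list of kinases that activate MEF2, calcineurin genes and calcineurin regulators, 3 of 11 tested genes were called, all higher. The median log2 fold change of the list was 0.13. The count was 1 by ordinary least squares, and with 1 library left out it ran from 1 (without LysM3 or K2KO2) to 5 (without K2KO3). Over all tested genes, the share called was 6.83% by ordinary least squares, 4.98% without LysM3, 6.14% without K2KO2 and 26.2% without K2KO3. Map3k3, the MEKK3 kinase above MEK5 and ERK5, was at 7.36, 5.65, 5.46 and 5.59 FPKM in LysM0 to LysM3 and 11.01, 12.2, 9.63 and 7.24 FPKM in K2KO0 to K2KO3. Its log2 fold change was 0.71 (SE 0.16, limma adjusted p = 0.0204), and K2KO3 lay just below LysM0. Map2k3, a kinase of p38, was at 25.8 ± 3.16 FPKM (SD, n = 4) in LysM and 34.1 ± 1.10 in K2KO libraries (log2 fold change 0.40, limma adjusted p = 0.0183, no overlap). Ppp3cb, a catalytic subunit of calcineurin, was at 10.4 ± 0.413 and 12.8 ± 0.555 FPKM (log2 fold change 0.29, limma adjusted p = 0.0139, no overlap), and its log2 fold change was 0.09 after the GC and length correction (adjusted p = 0.209).

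Of 6 tested MEF2 target genes, Klf4 was called, while the median log2 fold change of the list was -0.09. Klf4, a close relative of Klf2, was at 16.4, 16.03, 13.6 and 14.4 FPKM in LysM0 to LysM3 and 17.0, 18.4, 24.6 and 20.9 FPKM in K2KO0 to K2KO3. The K2KO libraries lay above every LysM library, K2KO0 by the least (log2 fold change 0.41, SE 0.12, limma adjusted p = 0.0366). The call held without LysM0 and without K2KO0 and was lost in the other 6 fits with 1 library left out. It was also lost with no filter on low values (limma adjusted p = 0.0766) and by ordinary least squares (0.089). With a replicate block it was lost too (limma adjusted p = 0.0791, and 0.0789 with the GC and length correction added). Of 8 other regulators of KLF2, 2 were called, both higher, with a median of 0.14, and neither was called after the GC and length correction. Prkaa1, a catalytic subunit of AMPK, was at 7.85 ± 0.322 FPKM (SD, n = 4) in LysM and 9.92 ± 0.664 in K2KO libraries (log2 fold change 0.33, limma adjusted p = 0.0141, no overlap), and 0.11 after the correction (adjusted p = 0.16). Wwp1, a ubiquitin ligase that targets KLF2, was at 36 ± 3.66 and 44.0 ± 3.22 FPKM (log2 fold change 0.29, limma adjusted p = 0.0396, with overlap), and 0.04 after the correction (adjusted p = 0.647). Their transcripts have a GC content of 40.2% and 39.6%, in the lowest eighth. With 1 library left out, Wwp1 was called in the fits without LysM2 and without K2KO3 and not in the other 6.

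Of 23 tested subunits of SAGA and ATAC, the complexes that hold GCN5 and PCAF, 17 were not called, 3 were called higher and 3 lower, and the median log2 fold change was -0.01. The count of 6 was 2 (Dr1 and Taf10) with the GC and length correction, and it ran from 1 (without LysM1, LysM3 or K2KO2) to 8 (without K2KO3), with Dr1 among the calls in all 8 fits that left out 1 library. Over all tested genes, the share called was 10% with the correction, 6.89% without LysM1, 4.98% without LysM3, 6.14% without K2KO2 and 26.2% without K2KO3. Dr1, a histone fold subunit of ATAC, was at 10.3 ± 0.945 FPKM (SD, n = 4) in LysM and 14.9 ± 1.90 in K2KO libraries (log2 fold change 0.52, SE 0.11, limma adjusted p = 0.0149, no overlap). Tada3, an adaptor of both complexes, fell from 20.1 ± 2.22 to 15.6 ± 1.88 FPKM (log2 fold change -0.37, limma adjusted p = 0.039, no overlap). Taf10, shared by SAGA and TFIID, fell from 11.3 ± 1.16 to 8.84 ± 0.858 FPKM (log2 fold change -0.35, limma adjusted p = 0.0306, no overlap). Supt7l, a core subunit of SAGA, rose from 5.39 ± 0.586 to 6.62 ± 0.438 FPKM (log2 fold change 0.30, limma adjusted p = 0.0417, with overlap); the correction left its log2 fold change at 0.28 and that of Tada3 at -0.29, neither called.

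None of 10 tested other acetyltransferases was called in the limma fit described above, with FPKM as deposited and no replicate block, or by ordinary least squares. An unadjusted p under 0.05 was reached by 3 of them, beside 37.8% of all tested genes, and their median log2 fold change was 0.04. Kat6b, a MYST family enzyme, missed the filter at a mean of 0.971 FPKM; it was at 0.736 ± 0.0317 FPKM (SD, n = 4) in LysM and 1.21 ± 0.0398 in K2KO libraries, with no overlap. With a filter at a mean of 0.1 FPKM it was called higher (log2 fold change 0.64, limma adjusted p = 0.0136), as it was with no filter. Its mean also passed the filter of 1 FPKM in the fits without LysM0, where it was called, and without LysM1 (adjusted p = 0.0628) and LysM3 (0.0697), where it was not. Naa60 was called higher with upper-quartile scaling and Ncoa2 with a replicate block. Without LysM0, where 21.9% of all tested genes were called, 3 of these acetyltransferases (Kat6b, Naa60 and Ncoa2) were called higher. Without K2KO3, where 26.2% of all tested genes were called, 2 of these acetyltransferases were (Naa60 and Ncoa2). The most abundant was Ncoa3, the steroid receptor co-activator SRC-3, at 24.1 ± 1.57 FPKM (SD, n = 4) in LysM and 22.1 ± 0.964 in K2KO libraries (log2 fold change -0.12, limma adjusted p = 0.182). After the GC and length correction its log2 fold change was -0.23 (limma adjusted p = 0.0496), within the fold limit and so not called. Of 13 tested transcription factors and cofactors that work through CBP and p300, 1 was called, with 2 called without LysM2 and 4 without K2KO3. Over all tested genes, 10.2% were called without LysM2 and 26.2% without K2KO3. Hif1a, the hypoxia-inducible factor whose transactivation domain recruits them, was at 7.82, 7.60, 7.56 and 7.03 FPKM in LysM0 to LysM3 and 12.7, 11.7, 10.6 and 10.1 FPKM in K2KO0 to K2KO3. Its log2 fold change was 0.58 (SE 0.08, limma adjusted p = 0.0063), and the groups did not overlap. After the GC and length correction it was 0.37 (adjusted p = 0.0231), for a transcript of 41.3% GC.

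None of the 5 NF-kB subunits was called in the limma fit described above, with FPKM as deposited and both thresholds, or by ordinary least squares. An unadjusted p under 0.05 was reached by 4 of them, 1 of these higher in K2KO, beside 37.8% of all tested genes. Rela, the most abundant and a substrate of p300 and CBP, was at 86.3, 89.5, 72.6 and 87.7 FPKM in LysM0 to LysM3. In K2KO0 to K2KO3 it was at 67.7, 68.0, 66.3 and 78.8 FPKM, with overlap through LysM2 and K2KO3 (log2 fold change -0.26, SE 0.09, limma adjusted p = 0.0608). Rela was called lower without LysM2 (-0.33, adjusted p = 0.0391) and without K2KO3 (-0.31, adjusted p = 0.0223), and the GC and length correction brought it to -0.12 (adjusted p = 0.186). Over the fits with 1 library left out, 0 to 3 subunits were called: 1 each without LysM0, LysM2 and K2KO1, 3 without K2KO3 and 0 in the other 4 fits. Over all tested genes, the share called was 21.9% without LysM0, 10.2% without LysM2, 7.55% without K2KO1 and 26.2% without K2KO3. Nfkb2, which encodes the p100 precursor of p52, was at 28.8 ± 1.23 FPKM (SD, n = 4) in LysM and 24.1 ± 1.99 in K2KO libraries with no overlap, and missed only the fold limit (log2 fold change -0.259, limma adjusted p = 0.0325). It was called lower with median centring (-0.28, adjusted p = 0.0285), without LysM0 and without K2KO3, and was at -0.18 after the GC and length correction (adjusted p = 0.0946). The median over the NF-kB subunits was -0.22. The shares of called genes in these lists were up to 27.3% (MEF2 kinases, calcineurin and its regulators) and 26.1% (SAGA and ATAC subunits). They stand beside 18.4% over all tested genes, and the lists were given no test of their own. Of the 16 called genes named from these lists, 8 were also called after the GC and length correction: Hdac1, Dr1, Taf10, Hif1a, Camk1, Map3k3, Map2k3 and Klf4. With each of the 8 libraries left out in turn, the calls of Hif1a, Dr1 and Camk1 held in 8 of 8 fits and that of Map2k3 in 7 (not without K2KO2). Of these, Hif1a was also called in all 12 other settings, while ordinary least squares did not call Dr1 (adjusted p = 0.0514) or Map2k3 (0.0527) and Camk1 was lost under the scalings given above. Those of Prkaa1 and Ppp3cb held in 8 and 7 of the 8 (Ppp3cb not without LysM3) but not after the correction, and each of the rest was lost in at least 5.

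**Figure D5:**
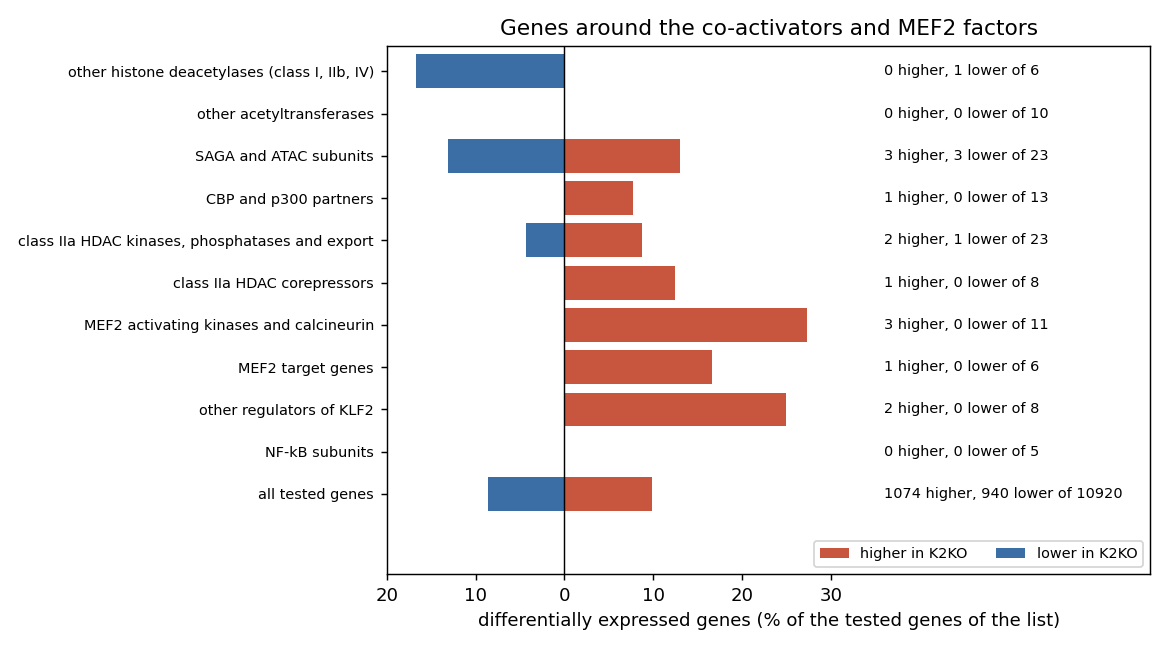
Share of the tested genes of each list (x axis, percent) that was differentially expressed, higher in K2KO to the right in red and lower to the left in blue, with the numbers beside each bar and all 10920 tested genes at the bottom. Called genes of the MEF2 kinase list and of the other KLF2 regulators were all higher, and those of the SAGA and ATAC subunits were split 3 to 3.

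The cell type was checked on marker lists. Macrophage markers were abundant, led by Cd68 at a mean of 1807 FPKM, with summed levels of 3927 to 4141 FPKM in LysM and 3683 to 3826 FPKM in K2KO libraries. These sums did not overlap. Among the markers, Cd14 was at 1028 ± 56.7 FPKM (SD, n = 4) in LysM and 829 ± 117.5 in K2KO libraries. It did not overlap and was not called (log2 fold change -0.32, limma adjusted p = 0.063). Of the 8 macrophage markers, Mertk was called higher (14.3 ± 1.68 against 18.3 ± 1.5 FPKM, SD, n = 4; log2 fold change 0.36, limma adjusted p = 0.0285) and Lyz2 lower. Mertk was not called after the GC and length correction (0.28, adjusted p = 0.0752), and with 1 library left out it was called only without LysM0 and without K2KO3. Neutrophil markers were next, with sums of 186 to 315 FPKM and 175 to 306 FPKM and S100a9 the most abundant at a mean of 129 FPKM. Of the 8 neutrophil markers 1 was called, Camp, a granule peptide gene, at 13.6 ± 2.21 FPKM in LysM and 6.40 ± 2.53 in K2KO libraries with no overlap (SD, n = 4; log2 fold change -1.15, limma adjusted p = 0.0178). The call was lost by ordinary least squares (adjusted p = 0.0635) and without LysM1 (0.0511), LysM3 (0.0553) or K2KO2 (0.0542). The other tested neutrophil markers were not called. Their log2 fold changes were 0.27 (S100a8), -0.07 (S100a9), 0.47 (Elane), 0.175 (Mpo), -0.003 (Ltf) and 0.02 (Ngp). In bulk RNA, fewer cells of a type and less RNA per cell cannot be told apart.

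Markers of other cells were low in both groups next to those of macrophages, though Ccr7, Cd79b and Kdr passed the filter and none of these was called. Summed dendritic cell markers were 0.576 to 2.29 FPKM in LysM and 1.95 to 4.54 FPKM in K2KO libraries, with 5 of 6 markers under a mean of 1 FPKM and Ccr7 the most abundant at 1.30. B cell markers summed to 1.53 to 4.90 and 3.55 to 5.46 FPKM, led by Cd79b at 2.47, and endothelial markers to 1.14 to 2.21 and 1.999 to 2.54 FPKM, led by Kdr at 1.86. Fibroblast markers summed to 0.258 to 1.40 and 0.588 to 3.41 FPKM, led by Dcn at 0.481. T cell markers reached at most 0.678 FPKM (led by Cd2), erythroid markers 1.25 FPKM (led by Hba-a1, with Hbb-bt listed at 0 in all libraries) and mast cell markers 0.846 FPKM (led by Kit). Kit (means of 0.123 FPKM in LysM and 0.333 in K2KO libraries) and the dendritic cell marker Siglech (0.205 and 0.463) were higher in every K2KO library than in every LysM library. Both were under the filter and not tested. The remaining markers of these other cells overlapped between the groups. The part of these other cells in the levels of the 9 genes was not tested.

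Across the 8 libraries the 9 genes did not move as one. Over their 36 pairs, Pearson's r on the log2(FPKM + 0.1) scale ran from -0.80 for Hdac7 and Mef2d to 0.76 for Mef2a and Mef2d. It was 0.74 for Mef2a and Mef2c and 0.67 for Ep300 and Mef2a. These values describe 8 libraries that share genotype, scaling and GC composition, and they carry no p. By the same measure over the 8 libraries, the tested gene most like Mef2a was Top1, DNA topoisomerase I (r = 0.96), which was also called higher, at 10.4 ± 1.18 FPKM (SD, n = 4) in LysM and 15.2 ± 1.18 in K2KO libraries (log2 fold change 0.55, limma adjusted p = 0.0102). The gene most like Mef2c was Azi2 (r = 0.96) and that most like Mef2d was Tti2 (r = 0.98). Ep300 was most like Slc39a10, a zinc transporter (r = 0.99), and Crebbp most like Fmnl3, a formin (r = 0.96). For Kat2a it was Zfp414 (r = 0.98), for Kat2b Eri1 (r = 0.91), for Hdac5 Clip2 (r = 0.96) and for Hdac7 Eif3m (r = 0.97). The highest r among 10920 genes over 8 libraries is high by selection alone.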

How the data were processed

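FPKM of BMDMs from 4 LysM and 4 K2KO mice were used as the authors deposited them, in 1 table without pooling. The methods name a stranded total RNA kit, TopHat2 and Cufflinks on mm10, and the submitters' processing notes list STAR, Cufflinks and Cuffdiff, so the aligner of the deposited FPKM is uncertain. FPKM give no read numbers, and counting error could not be given. All 8 columns were mapped to a genotype and none to a mouse. Positions, GC content and length (longest transcript) come from GENCODE M21 on GRCm38 for 23645 of the 23761 genes. Promoters come from RefSeq (GRCm38.p6), where all 9 genes and Klf2 were matched.

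Log2(FPKM + 0.1) was fitted with limma 3.58.1 under R 4.3.3 (lmFit, then eBayes with its trend option) for genes whose FPKM averaged 1 or more, without covariates, and the procedure was tested on simulated data. The 2 thresholds are those of the study. The GC and length correction was a local regression of each library (span 0.3). Alternatives were other pseudocounts (1, 0.01), filters (0.1 or none), scalings and tests, a replicate block and each library left out.

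The 9 genes and the lists were chosen with earlier results of these data known. Named are these genes, Klf2, up to 4 called genes of each list (the most abundant gene where none was called), Mef2b, Hdac4, Hdac9, the gene most like each of the 9, and the most abundant marker of each cell type. Lyz2, Kat6b, Hdac2, Hdac3, Naa60, Ncoa2, Nfkb2, Camp, Mertk, Cd14, S100a8, Elane, Mpo, Ltf, Ngp, Taf6l, Ctbp2, Sgf29, Tada2a, Ywhaz, Siglech and genes that overlap or copy one of the 9 were added after their values were seen. Near-identical copies share at least 95% of at least 200 bases.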

Additional observations from a re-analysis of the deposited data

Results flagged for a closer look

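Of 32 groups of 4 libraries examined for a library far from the others, 1 was flagged, and chance gives about 1.6. The share of Mef2a in the summed FPKM of Mef2a, Mef2c and Mef2d was 37.6% in K2KO0, while the nearest of the other K2KO libraries was at 33.8%; the gap was 0.851 of the range of the group. The K2KO libraries other than K2KO0 were also above every LysM library in this share.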

How the results depend on the processing

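The count of differentially expressed genes was 2014, and it was 1090 with no filter on low values, 746 by ordinary least squares, 1095 with the GC and length correction and 543 to 2863 with 1 library left out (543 without LysM3, 2863 without K2KO3). Of these calls 53.3% were higher in K2KO, against 64.1% with upper-quartile scaling, 45.5% with median centring and 44.2% with the GC and length correction. Among the 9 genes the count was 1, and it was 2 with upper-quartile scaling (Mef2a and Mef2c), 0 by ordinary least squares, 0 with the GC and length correction and 0 to 3 with 1 library left out (0 without LysM1, LysM3 or K2KO2, and 3, with Ep300 and Mef2c added, without K2KO3). Mef2a was called in 9 of 12 other settings, with a log2 fold change of 0.23 to 0.48. Same-numbered libraries deviated with correlations of -0.07, 0.02, 0.07 and -0.06, so the numbers were not taken as pairs; with a replicate block the count was 2057 and Mef2a had a log2 fold change of 0.43 (limma adjusted p = 0.0169), while Ppp1r12a (adjusted p = 0.0523), Klf4 (0.0791), Supt7l (0.0868) and Taf6l were no longer called and Ncoa2, Ctbp2, Sgf29 and Tada2a were, and with the replicate block and the GC and length correction the counts were 864 and 0 and Klf4 (0.0789), Hdac1 (0.0553) and Taf10 (0.0517) were not called. Uncalled values that changed sign were Crebbp (0.005) and Kat2b (0.021) with upper-quartile scaling, Kat2b with 1 library left out (-0.053 to 0.005; 0.003 without LysM1, 0.005 without LysM2), Klf2 with the GC and length correction (0.039, with or without the replicate block), Cd68 (0.29 with quantile normalization, 0.001 with upper-quartile scaling, 0.084 with the correction, with or without the block), Hdac4 (-0.071 with quantile normalization, -0.053 with the correction, with or without the block, -0.015 to 0.070 with 1 library left out, below 0 without LysM2 at -0.003 and without K2KO2) and S100a9 (0.081 with quantile normalization, -0.231 to 0.106 with 1 library left out, above 0 without LysM3 at 0.066 and without K2KO0). The cause was not tested.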
